A study of Mus musculus with 4 samples.

Results

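The genes described here are 10 members of the actomyosin system that is best known from smooth muscle: Acta2, Tagln, Tagln2, Cnn1, Cnn2, Cnn3, Tpm1, Tpm2, Myl9 and Cald1. They were read through every probe set of a mouse Affymetrix array whose single gene symbol in the platform annotation, updated by Entrez identifier, was one of these names. This gave 29 probe sets for 10 genes, of 45037 probe sets for transcripts and 18193 named genes on the array. The samples were 2 arrays of cultured astrocytes and 2 arrays of cultured neurons, all from cerebral cortex of C57BL6 mice. Astrocytes came from newborn animals and were kept in basal medium Eagle with 10% fetal calf serum and 33 mM glucose. Neurons were taken from embryonic day 16 fetuses, and after plating they were kept in the same basal medium at 19.4 mM glucose, with fetal calf serum at 1% and with glutamine, to which progesterone, putrescine, transferrin, insulin and selenite were added. The series text gives 20 days in culture for astrocytes and 7 days for neurons, whereas the protocol text gives 7 to 8 days for all cells. Neither culture was sorted, no agent was tested, and cell type cannot be told apart from donor age, medium, serum and, by the series text, time in culture. The titles call the 2 arrays of a group biological replicates, but nothing says how many animals a culture pooled. The p-values thus rest on the spread between these arrays, which for each gene is in large part borrowed from all genes tested.

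Contractile actomyosin is built from actin filaments, myosin II motors and proteins that lie along the filament and set when myosin may pull. In smooth muscle, calcium and calmodulin switch on a kinase that phosphorylates the regulatory light chain of myosin, and the RhoA and ROCK pathway holds back the phosphatase that reverses it. Tropomyosin winds along the actin filament, and caldesmon, the calponins and the related transgelins bind the filament beside it. Many genes of this set are targets of serum response factor (SRF), which binds a short motif called the CArG box together with myocardin or its relatives, the MRTF proteins. In brain these genes are textbook markers of the smooth muscle cells and pericytes of vessels, and several of them, Cnn3 and Tpm1 among them, are also made by cells that are not muscle.

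All 10 genes had higher signal on both astrocyte arrays than on both neuron arrays. The difference ran from 3.69-fold for Cnn3 to 67.4-fold for Tagln, and Myl9, Acta2, Cnn2, Cald1, Tpm2 and Cnn1 also lay more than 8-fold apart. Of the 29 probe sets, 24 were called higher in astrocytes, 0 were called higher in neurons, 1 was tested and not called, and 4 were too dim to be tested. Values are MAS5 signals, and differences are astrocytes minus neurons on the scale log2(signal + 12.5), where the added 12.5 damps the noise of dim probe sets. They were tested with limma across all probe sets that passed a filter on low signal, and a call is an adjusted p under 0.05. Among all 25019 probe sets that passed, 27.7% were called higher in astrocytes and 29.4% higher in neurons. With 1 probe set for each of 12040 genes the shares were 31.8% and 31.8%, and 2.67% of genes were called and at least 8-fold higher in astrocytes, against 7 of these 10. Of the probe sets of the 10 genes 12 were called at 8-fold or more, against 2.01% of all probe sets tested. The groups did not overlap, with astrocytes higher, in 40.5% of all genes. The median log2 difference was 4.42 over the 10 genes and -0.02 over all genes. A probe set could pass the filter through the astrocyte arrays alone, which was so for 6 of the 25 that were tested. Others, such as those of Tagln, Cnn2 and Myl9, reached the median on 1 neuron array and passed only with an astrocyte array. The 10 genes were also listed with earlier results of these arrays known, so these counts describe the genes and test nothing about the list. Without the filter the calls were again 24 of 29 probe sets and 10 of 10 genes.

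**Figure D1:**
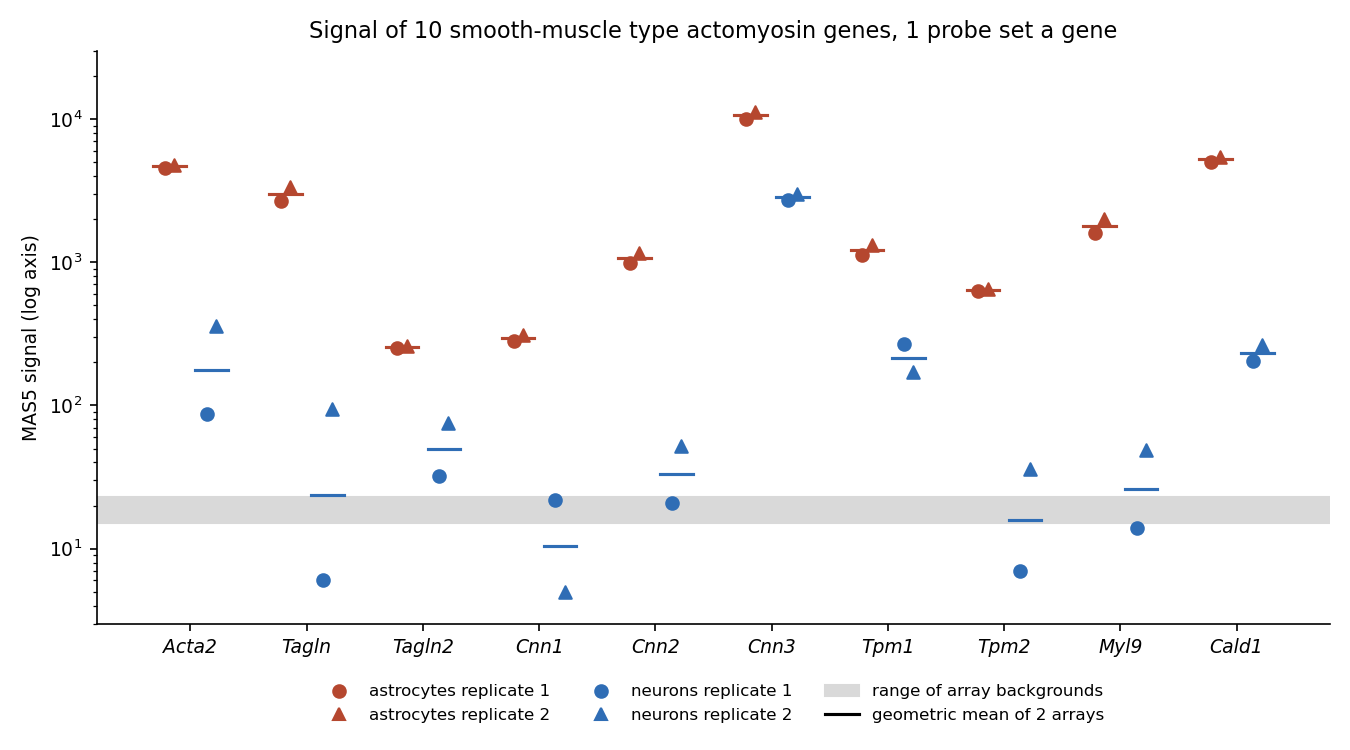
MAS5 signal (log axis) of each gene by its main probe set on the 2 astrocyte arrays (red, left of each pair) and the 2 neuron arrays (blue, right). Circles are replicate 1, triangles replicate 2, bars geometric means, and the grey band spans the 4 array backgrounds of 15 to 23. All 10 genes lie higher on both astrocyte arrays, and 5 genes have 1 neuron array at or under its background.

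Array quality differed little between the groups. The correlation of log2 signals over probe sets was 0.978 between the astrocyte arrays and 0.977 between the neuron arrays, and 0.827 to 0.834 across groups. RNA integrity, read as the 3' over 5' signal of Gapdh, was 0.720 and 0.711 in astrocytes and 0.740 and 0.773 in neurons. The same ratio for Actb was higher, at 1.495 and 1.439 in astrocytes and 1.439 and 1.487 in neurons. Background was taken as the highest of 27 Bacillus subtilis control probe sets, 17 and 15 on the astrocyte arrays and 21 and 23 on the neuron arrays.

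The start regions of Acta2, Cnn2 and Myl9 are shown because they hold a CArG box or a run close to it, and because the 10 genes differ in the same direction. RefSeq windows of the mouse build GRCm38.p6, from 250 bases before to 50 bases after a gene's start, were found for 9 of the 10 genes. They were searched on both strands for the CArG box, and for a CArG-like run in which 1 of the 6 core letters is G or C in place of A or T. Cnn2 and Myl9 held a CArG box, and Acta2 and Myl9 held CArG-like runs. Of 9745 tested genes with a window, 1.52% held a CArG box and 9.21% a CArG-like run, against 2 of 9 and 2 of 9 here. Matches are descriptions of these letters and not binding sites. Acta2 is read from chr19:34255324-34255623 on the minus strand, with its CArG-like runs starting at -84 and -34 relative to the start in the table. Cnn2 is read from chr10:79988350-79988649 on the plus strand, with its CArG box at -56. Myl9 is read from chr2:156775214-156775513 on the plus strand, with a CArG box at -161 and a CArG-like run at -99. Capitals mark these runs.
Acta2: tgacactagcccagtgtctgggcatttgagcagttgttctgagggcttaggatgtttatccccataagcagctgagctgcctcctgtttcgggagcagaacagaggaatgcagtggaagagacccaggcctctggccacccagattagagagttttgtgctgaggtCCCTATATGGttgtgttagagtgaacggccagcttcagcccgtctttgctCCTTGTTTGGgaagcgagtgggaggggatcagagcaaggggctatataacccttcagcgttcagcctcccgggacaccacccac
Cnn2: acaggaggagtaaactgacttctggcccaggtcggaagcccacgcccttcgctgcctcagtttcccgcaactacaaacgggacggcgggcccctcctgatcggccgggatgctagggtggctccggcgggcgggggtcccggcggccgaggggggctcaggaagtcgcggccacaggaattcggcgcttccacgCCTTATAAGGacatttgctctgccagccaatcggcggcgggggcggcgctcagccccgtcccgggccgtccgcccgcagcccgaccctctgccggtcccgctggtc
Myl9: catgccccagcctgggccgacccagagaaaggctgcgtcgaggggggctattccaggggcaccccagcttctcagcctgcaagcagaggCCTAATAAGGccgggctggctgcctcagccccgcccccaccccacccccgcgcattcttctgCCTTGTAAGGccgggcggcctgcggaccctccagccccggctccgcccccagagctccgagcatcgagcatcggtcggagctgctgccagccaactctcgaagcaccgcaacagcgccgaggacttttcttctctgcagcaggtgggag

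Acta2 encodes smooth muscle alpha-actin, the actin of the contractile filament. Its main probe set, 1416454_s_at, had a signal of 4544 and 4791 on the astrocyte arrays, against 87 and 361 on the neuron arrays. The astrocyte arrays were close to each other and far above both neuron arrays, while neurons replicate 2 read higher than replicate 1. The log2 difference was 4.60 ± 0.47 (SE, n = 2 arrays a group here and below), 24.3-fold, with adjusted p = 3.43e-05 by limma over 12040 genes. It was 12.5-fold without neurons replicate 1 and 47.0-fold without neurons replicate 2. A second probe set, 1444105_at, had 67 and 94 in astrocytes, against 7 and 3 in neurons, both at or under background there, at least 3.61-fold higher in astrocytes (adjusted p = 9.60e-05 over 25019 probe sets). The remaining one, 1456658_at, was too dim to be tested, at 12 and 20 in astrocytes and 16 and 22 in neurons, with overlapping groups. The suffix _s marks a probe set that may match more than 1 transcript, and the signals of closely related actins may not be told apart with it.

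Of the 5 other actins 4 were tested, and 1 was called in each direction, beside 31.8% of all genes tested in each direction. Actb, the cytoplasmic beta-actin, had 8347 and 10070 in astrocytes and 8666 and 8977 in neurons, a log2 difference of 0.06 ± 0.11 (adjusted p = 0.687), with overlapping groups. Actg1, the cytoplasmic gamma-actin, had 7964 and 9073 in astrocytes and 9109 and 10114 in neurons, a log2 difference of -0.18 ± 0.11 (adjusted p = 0.187), which became a call for neurons with quantile normalization (-0.25, adjusted p = 0.0189). Actg2, the gamma-actin of enteric smooth muscle, was dim, with 49 and 38 in astrocytes against 5 and 8 in neurons, both at or under background there, and was at least 1.96-fold higher in astrocytes (adjusted p = 0.00107). Acta1, the actin of skeletal muscle, had 42 and 34 in astrocytes and 70 and 81 in neurons and was called 1.74-fold higher in neurons (adjusted p = 0.0112), but not without neurons replicate 2 (adjusted p = 0.0749) or astrocytes replicate 2 (adjusted p = 0.0774). Actc1, the cardiac actin, was at or under background on all 4 arrays.

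Tagln encodes transgelin (SM22-alpha), an actin-binding relative of the calponins that is abundant in smooth muscle. By its only probe set, 1423505_at, Tagln had a signal of 2691 and 3331 in astrocytes, against 6 and 95 in neurons. Neurons replicate 1 was under background and replicate 2 above it, and both were far below the astrocyte arrays. The log2 difference was 6.08 ± 0.63 (SE), 67.4-fold (adjusted p = 3.62e-05), a larger difference than that of 99.9% of genes tested. The size rests on which neuron array is used, since it was 28.0-fold without replicate 1 and 163-fold without replicate 2. Tagln2, a relative that is made in many cell types, had 252 and 262 in astrocytes, against 32 and 76 in neurons by 1426529_a_at, with no overlap. Its log2 difference was 2.10 ± 0.29 (SE), 4.29-fold (adjusted p = 2.38e-04). In the fit over all probe sets this probe set was not called without astrocytes replicate 1 (adjusted p = 0.0547) or replicate 2 (adjusted p = 0.0579). A second Tagln2 probe set, 1439407_x_at, had 222 and 136 in astrocytes and 3 and 6 in neurons, at least 7.91-fold higher in astrocytes (adjusted p = 1.24e-05). The remaining one, 1420245_x_at, was under background on all 4 arrays and was not tested. Tagln3, the transgelin of neurons, went the other way, with 93 and 94 in astrocytes against 580 and 669 in neurons (5.99-fold higher in neurons, adjusted p = 8.86e-07). The 3 transgelins thus did not share a direction: 2 were higher in astrocytes and 1 in neurons.

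The 3 calponins, which bind actin and slow the myosin motor in smooth muscle, were all higher in astrocytes. Cnn1, the calponin of differentiated smooth muscle, had 282 and 313 in astrocytes, against 22 and 5 in neurons by 1417917_at. Neurons replicate 1 lay 1 unit above its background and replicate 2 under it, so this gene was at the edge of measurement in neurons. Its log2 difference was 3.66 ± 0.31 (SE), 12.6-fold (adjusted p = 9.30e-06). Cnn2, which is made in smooth muscle and in other moving or spreading cells, had 990 and 1168 in astrocytes, against 21 and 52 in neurons by 1450981_at. The groups lay far apart, with neurons replicate 1 at its background, and the log2 difference was 4.55 ± 0.28 (SE), 23.4-fold (adjusted p = 1.28e-06).

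Cnn3, the acidic calponin that is also made in brain, was strong in both cultures. Its main probe set, 1436836_x_at, had 10078 and 11184 in astrocytes, against 2735 and 3001 in neurons. All 4 arrays were well above background, the arrays of each group were close, and the log2 difference was 1.89 ± 0.10 (SE), 3.69-fold (adjusted p = 8.03e-07). The other 5 probe sets of Cnn3 gave log2 differences from 1.94 to 3.07, each called in the fit over probe sets. The only one without a suffix for several transcripts, 1426724_at, had 6513 and 7057 in astrocytes and 901 and 1131 in neurons, 6.65-fold (adjusted p = 8.02e-07). In 1456380_x_at the astrocyte arrays differed, at 3134 and 1364, against 325 and 454 in neurons, and this probe set was not called without neurons replicate 1 (adjusted p = 0.0742) or replicate 2 (adjusted p = 0.0516).

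Tpm1 and Tpm2 encode tropomyosins, coiled coils that lie along the actin filament and are made in many forms by splicing. Tpm1 had 1133 and 1322 in astrocytes, against 270 and 171 in neurons by 1423721_at. It was above background on all 4 arrays with no overlap, and the log2 difference was 2.44 ± 0.20 (SE), 5.43-fold (adjusted p = 7.60e-06). Of the other Tpm1 probe sets, 1423049_a_at differed by 2.78 ± 0.14 and 1456623_at by 1.59 ± 0.22, both called. The remaining one, 1447713_at, was too dim to be tested, at 28 and 13 in astrocytes and 15 and 8 in neurons.

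Tpm2 had 635 and 651 in astrocytes, against 7 and 36 in neurons by 1419738_a_at. The astrocyte arrays were nearly equal, and of the neuron arrays replicate 1 was under background. The log2 difference was 4.41 ± 0.36 (SE), 21.3-fold (adjusted p = 7.54e-06), and it was 13.5-fold without neurons replicate 1 and 33.6-fold without replicate 2. By 1425028_a_at the signal was 296 and 317 in astrocytes and 1 and 1 in neurons, at least 13.9-fold higher in astrocytes (adjusted p = 6.18e-07). By 1449577_x_at it was 200 and 106 in astrocytes and 7 and 13 in neurons, at least 6.63-fold (adjusted p = 8.25e-05). The fourth Tpm2 probe set, 1419739_at, read 44 and 44 in astrocytes and 38 and 35 in neurons. Its log2 difference of 0.21 ± 0.22 (95% interval -0.30 to 0.71, adjusted p = 0.453) makes it the only tested probe set of the 10 genes without a call, and it is the only Tpm2 probe set whose name carries no suffix for several transcripts.

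**Figure D2:**
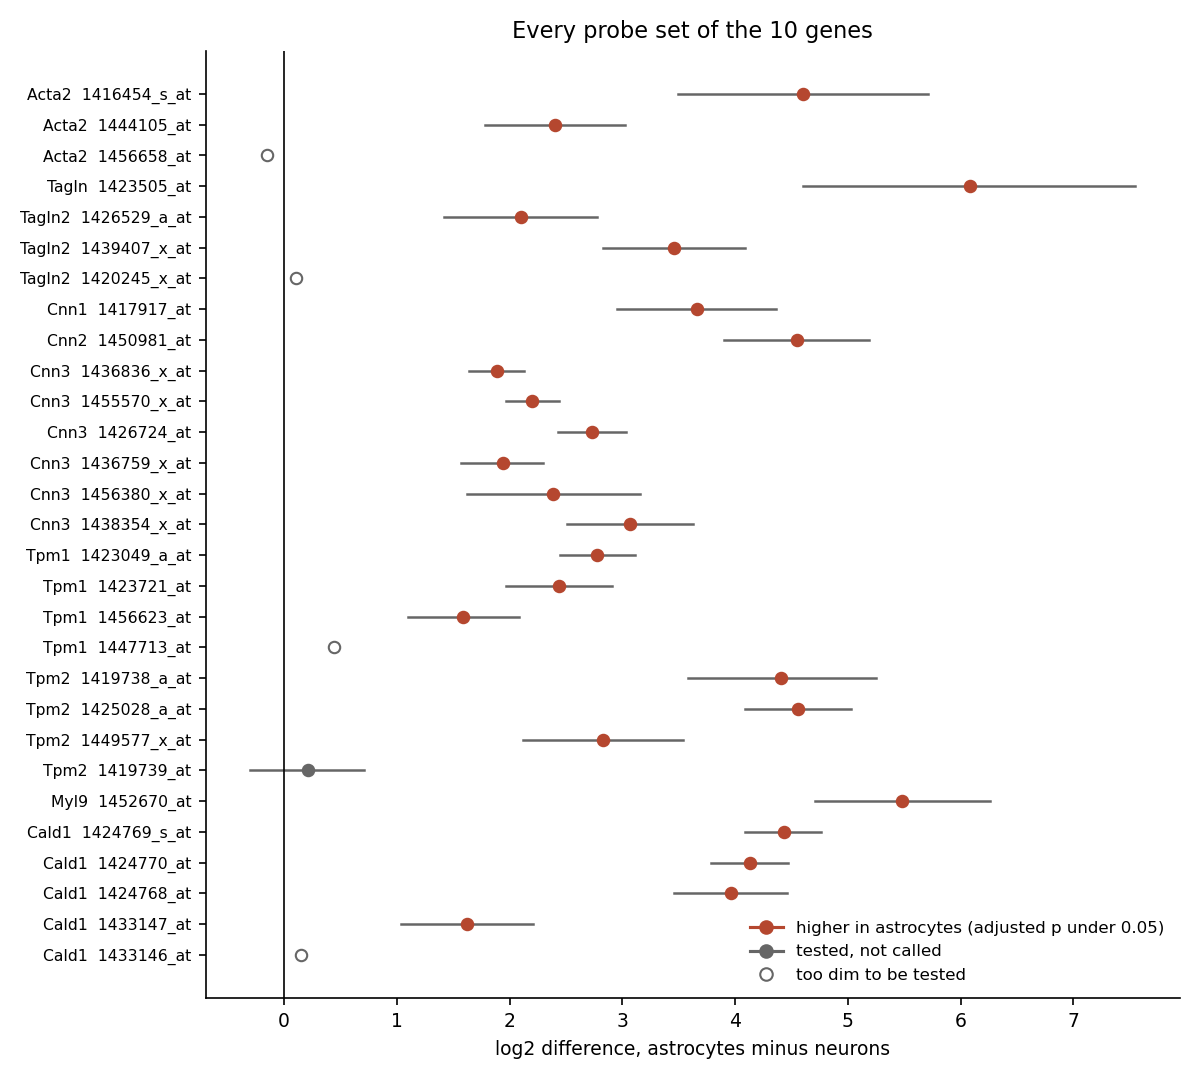
The log2 difference (astrocytes minus neurons) of all 29 probe sets, with 95% intervals from the limma fit for the 25 tested. Red points were called higher in astrocytes, the grey point (Tpm2 1419739_at, 0.21) was not called, and open points are the 4 probe sets too dim to be tested.

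Other tropomyosins were mixed. Tpm4, which is made mainly outside muscle, had 2398 and 2450 in astrocytes, against 355 and 470 in neurons (5.79-fold higher in astrocytes, adjusted p = 8.58e-07). Tpm3 by its main probe set had 1906 and 2027 in astrocytes and 2015 and 2172 in neurons, a log2 difference of -0.09 ± 0.10 (adjusted p = 0.479), with overlapping groups. Of the other Tpm3 probe sets, 1436958_x_at (-0.45 ± 0.15) and 1449997_at (-0.65 ± 0.23) were called higher in neurons. The probe set 1427567_a_at went the other way, at 281 and 256 in astrocytes and 190 and 211 in neurons (log2 difference 0.40 ± 0.15), and missed the threshold (adjusted p = 0.0501).

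Myl9 encodes a regulatory light chain of smooth muscle and nonmuscle myosin II, the subunit that is phosphorylated to start contraction. It had 1602 and 2008 in astrocytes, against 14 and 49 in neurons by its only probe set, 1452670_at. Neurons replicate 1 was under background, and both neuron arrays lay far below astrocytes. The log2 difference was 5.48 ± 0.33 (SE), 44.7-fold (adjusted p = 1.30e-06), with 29.4-fold without neurons replicate 1 and 68.2-fold without replicate 2. Its close relatives divided: Myl12a had 4861 and 4456 in astrocytes and 247 and 355 in neurons (15.1-fold higher in astrocytes, adjusted p = 1.78e-07). Myl12b had 3086 and 3314 in astrocytes and 3979 and 3909 in neurons, 1.23-fold higher in neurons (adjusted p = 0.0246). That Myl12b call was lost without any 1 of neurons replicate 1 (adjusted p = 0.118), neurons replicate 2 (0.101) and astrocytes replicate 1 (0.0955), and with quantile normalization (0.0585).

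The heavy chains to which these light chains bind were not alike either. Myh9, the nonmuscle myosin IIA heavy chain, had 1912 and 1725 in astrocytes, against 272 and 233 in neurons (6.92-fold, adjusted p = 2.91e-07). Myh10, the IIB chain, which is the main nonmuscle form of brain, had 4060 and 4188 in astrocytes and 2499 and 2424 in neurons, 1.67-fold (adjusted p = 1.57e-04); with its probe sets averaged it was not called (log2 difference 0.35, adjusted p = 0.101). Myh11, the heavy chain of smooth muscle itself, had 3 and 16 in astrocytes and 11 and 2 in neurons by its brighter probe set, at or near background on every array, and was not tested. The smooth-muscle type genes were high in astrocyte cultures in which Myh11 was above background on astrocytes replicate 2 alone, by 1 unit. Of 8 myosin II chains 6 were tested, 4 higher in astrocytes and 1 in neurons, beside 31.8% of all genes in each direction.

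Cald1 encodes caldesmon, which binds actin, tropomyosin and myosin and holds back the motor. By 1424769_s_at it had 5028 and 5465 in astrocytes, against 203 and 265 in neurons. All 4 arrays were above background, the arrays of a group were close, and the log2 difference was 4.43 ± 0.14 (SE), 21.5-fold (adjusted p = 5.15e-08). With any 1 array left out the fold stayed between 18.9 and 24.4. The probe sets 1424770_at (4.13 ± 0.15) and 1424768_at (3.96 ± 0.22) gave nearly the same difference, and 1433147_at, at 131 and 118 in astrocytes and 43 and 23 in neurons, gave 1.62 ± 0.25. That last call was lost in the fit over probe sets without astrocytes replicate 1 (adjusted p = 0.0530). The fifth, 1433146_at, was too dim to be tested, at 6 and 19 in astrocytes and 18 and 3 in neurons.

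The neuron arrays differed from each other in these genes. On neurons replicate 2, 8 of the 10 genes read higher than on replicate 1, with a median log2 gap (replicate 2 minus replicate 1) of 0.97, whereas over all genes tested 46% read higher and the median gap was -0.02. The gap was 2.54 for Tagln, 1.91 for Acta2, 1.31 for Tpm2 and 1.21 for Myl9, and it was -0.98 for Cnn1 and -0.62 for Tpm1. Between the astrocyte arrays the median gap over the 10 genes was 0.15. The astrocyte filament gene Gfap moved with it, at 1744 and 2133 in astrocytes and 2 and 109 in neurons (adjusted p = 2.09e-04, and 0.0514 without astrocytes replicate 2). Of 10 astrocyte markers, 6 read higher on neurons replicate 2. The summed signal of all 10 was 19804 and 20329 on the astrocyte arrays against 7262 and 8419 on neurons replicate 1 and 2. Aldoc, itself called higher in neurons, gave most of the rise between the neuron arrays, at 2574 and 3422. S100b, Fgfr3 and Aldh1l1 read lower on neurons replicate 2, and Mlc1 read 276 on both. Of 11 markers of vessel smooth muscle cells and pericytes, 8 read higher on neurons replicate 2, but 7 of the 11 were at or under background on both neuron arrays. The part of other cells in the gap was not tested. Leaving out any 1 array kept all 10 genes called and higher in astrocytes.

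**Figure D3:**
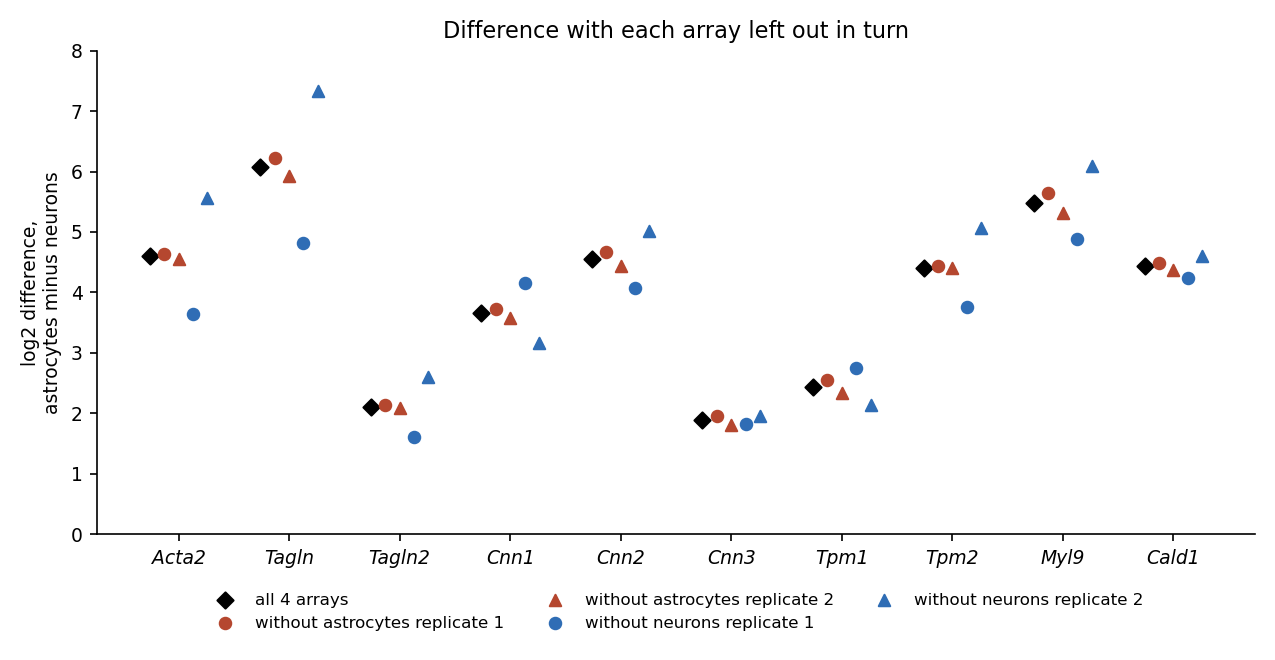
The log2 difference (astrocytes minus neurons) of each gene with all 4 arrays (black diamonds) and with 1 array left out (red for astrocyte arrays, blue for neuron arrays). Leaving out a neuron array moved Tagln between 4.81 and 7.34 and Acta2 between 3.65 and 5.56, and leaving out an astrocyte array moved the 10 genes by at most 0.16 (Myl9).

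Genes that steer contraction were measured as a list of 15 around the light chain kinase, the phosphatase and RhoA. Of the 12 tested, 5 were higher in astrocytes and 3 in neurons, with a median log2 difference of 0.13. Among all genes tested 31.8% were called in each direction, so these counts set the list little apart. Rhoa, which encodes the small GTPase RhoA, had 2742 and 2723 in astrocytes and 965 and 863 in neurons (2.97-fold, adjusted p = 2.70e-06). Ppp1r14c, an inhibitor of the phosphatase, had 254 and 288 in astrocytes and 1329 and 1571 in neurons, 5.15-fold higher in neurons (adjusted p = 8.86e-07). Ppp1cb, the catalytic subunit of the phosphatase, had 4024 and 3244 in astrocytes and 3906 and 4003 in neurons (adjusted p = 0.375), with overlapping groups. Mylk, the light chain kinase, was too dim to be tested by any of its 3 probe sets, at 27 and 28 in astrocytes and 35 and 24 in neurons by the brightest.

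SRF and its cofactors drive many of the 10 genes in muscle. Of 6 tested, 2 were higher in astrocytes and 1 in neurons, beside 31.8% of all genes in each direction. Their differences ran from -0.81 to 2.80 on the log2 scale. Srf had 194 and 170 in astrocytes and 207 and 207 in neurons (log2 difference -0.18 ± 0.15, adjusted p = 0.339). Mrtfa had 38 and 52 in astrocytes and 97 and 79 in neurons, 1.75-fold higher in neurons (adjusted p = 0.0122). That call was lost without neurons replicate 1 (adjusted p = 0.103), neurons replicate 2 (0.0507) or astrocytes replicate 1 (0.102). Mrtfb had 631 and 653 in astrocytes and 883 and 570 in neurons, with overlapping groups (adjusted p = 0.532). Without neurons replicate 2 it was called higher in neurons (log2 difference -0.45, adjusted p = 0.0405), and another Mrtfb probe set, 1445134_at, was called higher in neurons with all arrays (adjusted p = 0.00989). Myocd, the myocardin gene of heart and smooth muscle, was too dim to be tested, at 18 and 2 in astrocytes and 16 and 22 in neurons by its brighter probe set. Elk3, an ETS factor that binds DNA with SRF, had 435 and 422 in astrocytes and 55 and 47 in neurons (6.96-fold, adjusted p = 1.01e-06). Its relative Elk4 had 466 and 495 in astrocytes and 344 and 318 in neurons (1.44-fold, adjusted p = 0.00636), and was not called without astrocytes replicate 2 (adjusted p = 0.0680) or with its probe sets averaged (adjusted p = 0.397). These are transcript levels and say nothing of where the proteins lie or how active they are.

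Crosslinkers and adhesion plaque genes mostly went the way of the 10 genes. Of 19 tested, 15 were higher in astrocytes and 3 in neurons, beside 31.8% of all genes in each direction. Their median log2 difference was 1.82. Synpo, the actin-bundling synaptopodin, had 1038 and 1144 in astrocytes and 10 and 25 in neurons (37.9-fold, adjusted p = 2.65e-07). Palld, the scaffold palladin, had 2179 and 2027 in astrocytes and 62 and 81 in neurons (25.3-fold, adjusted p = 5.39e-08). Fhl1, a LIM-domain protein of muscle, had 6379 and 6997 in astrocytes and 1788 and 2140 in neurons (3.40-fold, adjusted p = 2.27e-06). Synpo and Fhl1 have 2 probe sets each, of which 1 was called higher in astrocytes and 0 in neurons. Tln1, the integrin linker talin, had 107 and 134 in astrocytes and 660 and 616 in neurons by its main probe set, 4.91-fold higher in neurons (adjusted p = 2.26e-06). Another Tln1 probe set was called the other way, and with probe sets averaged the log2 difference was 0.23 (adjusted p = 0.230), so its direction depends on the probe set.

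Of 10 genes of late smooth muscle differentiation, 6 were tested and the other 4 were too dim. Of those tested 3 were higher in astrocytes and 0 in neurons, beside 31.8% of all genes in each direction. Of the 10 listed 5 lay at or under background on both neuron arrays. Synpo2, a smooth muscle relative of synaptopodin, had 396 and 458 in astrocytes and 23 and 49 in neurons (9.38-fold, adjusted p = 6.69e-06) by its main probe set. Of its 4 probe sets, 1 was called higher in astrocytes and 0 in neurons. Lmod1, a smooth muscle leiomodin that nucleates actin, had 47 and 60 in astrocytes and 2 and 3 in neurons, at least 2.42-fold higher in astrocytes (adjusted p = 1.51e-04). Over the 7 lists there were 66 different genes, of which 55 were tested. Of these 30 were higher in astrocytes and 10 in neurons, again beside 31.8% of all genes in each direction. Without neurons replicate 2, the count higher in neurons was 6.

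**Figure D4:**
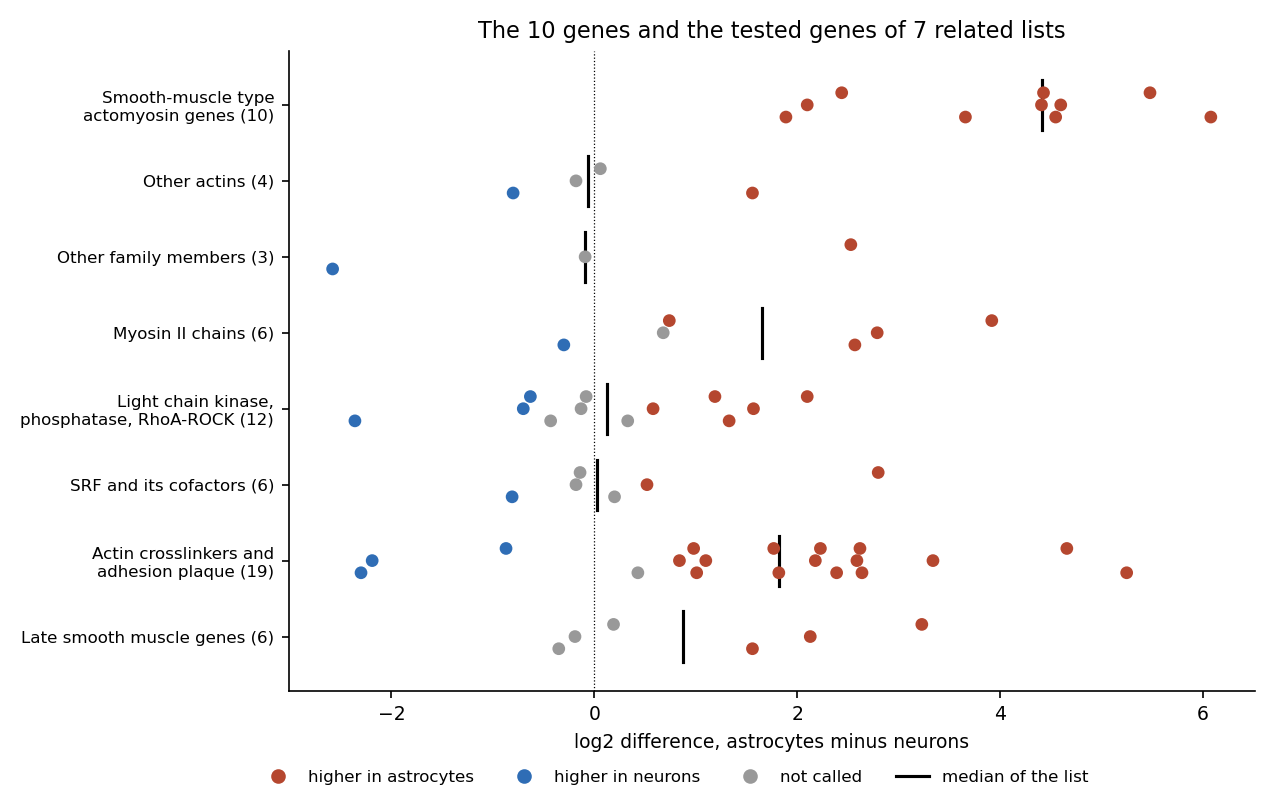
The log2 difference (astrocytes minus neurons) of the 10 genes (top) and of the tested genes of 7 related lists, with the number tested in brackets, and Actg2 in both the other actins and the late smooth muscle genes. The medians (black bars) are 4.42 for the 10 genes, 1.82 for crosslinkers and adhesion plaque genes and 0.03 for SRF and its cofactors.

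Markers of astrocytes, neurons and other cell types were set beside the 10 genes. In a bulk culture, fewer cells of a type and less RNA per cell cannot be told apart. The marker counts below stand beside 31.8% of all genes tested that were called in each direction. Of 10 neuron markers all 10 were higher in neurons, while for astrocytes 8 of 10 markers were higher on their own arrays and Aldoc was higher on the neuron arrays, a call lost without neurons replicate 2 (adjusted p = 0.0818), astrocytes replicate 1 (0.128) or astrocytes replicate 2 (0.0708), and without probe sets for several transcripts (0.0575). S100b, at 104 and 113 in astrocytes and 104 and 70 in neurons, was not called (adjusted p = 0.251), with overlapping groups. Both labels thus matched most of their markers. Some neuron markers were bright in astrocytes too, such as Stmn2, at 1465 and 1485 in astrocytes and 5727 and 6022 in neurons. For mural cells, the smooth muscle cells and pericytes of vessels, the summed signal of 11 markers was 905 and 747 in astrocytes and 235 and 272 in neurons. Pdgfrb alone made up most of the sum on each astrocyte array. Of the 11, 5 were tested, 2 were higher in astrocytes and 3 were not called. Pdgfrb, a receptor shared by mural cells and fibroblasts, had 561 and 479 in astrocytes and 15 and 44 in neurons (13.5-fold, adjusted p = 7.57e-06), and Mcam was the other one called. Rgs5 (36 and 32 in astrocytes, 22 and 27 in neurons), Notch3 (116 and 105 in astrocytes, 91 and 79 in neurons) and Des (58 and 31 in astrocytes, 52 and 49 in neurons) were above background on all 4 arrays and were not called. The pericyte markers Abcc9, Higd1b, Anpep and Ndufa4l2 were at or under background on all 4 arrays. Of 8 endothelial markers 1 was bright enough to be tested and it was not called, with sums of 156 and 136 in astrocytes and 115 and 144 in neurons, and Pecam1 at 4 and 2 against 18 and 3 in neurons. Of 10 fibroblast and meningeal markers 9 were tested, 5 were higher in astrocytes and 2 in neurons, and the sums were 5672 and 6065 in astrocytes and 2102 and 1411 in neurons. Islr, at 2465 and 2689 in astrocytes and 29 and 32 in neurons, and Foxc1, a transcription factor of meninges, at 368 and 326 against 8 and 13 in neurons, were among them, and Col1a2 was at 678 and 678 against 63 and 20 in neurons. The calls for Col1a1 and Col3a1 toward astrocytes did not hold in every setting: that for Col1a1 was lost without the filter (adjusted p = 0.105) and without neurons replicate 1 (0.181), neurons replicate 2 (0.218) or astrocytes replicate 2 (0.157), and that for Col3a1 without astrocytes replicate 1 (0.14) or replicate 2 (0.113). Lum, at 23 and 17 in astrocytes and 40 and 45 in neurons, and Postn, at 23 and 21 in astrocytes and 40 and 45 in neurons, were called higher in neurons. The Lum call was lost in 3 of the 4 fits with 1 array left out and the Postn call in all 4. Dcn, at 255 and 261 in astrocytes and 290 and 391 in neurons, was not called (adjusted p = 0.0810). Thy1 made up most of the fibroblast and meningeal sums in neurons, at 1638 and 1814 in astrocytes and 1535 and 808 in neurons. It was not called (adjusted p = 0.0519), but was called higher in astrocytes in some other settings, such as an offset 4 times as large (adjusted p = 0.0388). Slc6a13 was at or under background on all 4 arrays. Of 8 microglial markers 5 were higher in astrocytes, with sums of 844 and 815 in astrocytes and 125 and 174 in neurons. Of 8 oligodendrocyte lineage markers 6 were tested, 2 higher in astrocytes and 3 in neurons, with sums of 5518 and 6095 in astrocytes and 5613 and 4850 in neurons. The sums hide opposite directions. Pdgfra, at 19 and 21 in astrocytes and 1177 and 1302 in neurons, Mbp, at 16 and 16 against 420 and 431 in neurons, and Sox10 were higher in neurons. Cnp and Olig1, at 3500 and 3997 in astrocytes and 2899 and 1895 in neurons, were higher in astrocytes. The Olig1 call was lost without the filter (adjusted p = 0.0662) and in some fits with 1 array left out. The part of fibroblast-like, mural or microglial cells in the difference of the 10 genes was not tested.

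Genes with the most similar pattern were found by the Euclidean distance between centred log2 values over the 4 arrays, among 12030 other genes. Nearest to the median profile of the 10 genes were S100a13 (distance 0.21 log2 units), Osmr (0.22), Ifit1 (0.24), Irgm2 (0.26) and P3h2 (0.28). S100a13, a calcium-binding protein gene, had 1491 and 1735 in astrocytes and 49 and 87 in neurons, and Osmr, the oncostatin M receptor gene, had 1284 and 1266 in astrocytes and 28 and 75 in neurons. Nearest to Acta2 were Fzd6 (0.43), Cd109 (0.49) and Ifit1 (0.56), and nearest to Tagln were Col8a1 (0.56), Fmod (0.56) and Prss23 (0.63). Col8a1, a short-chain collagen gene, had 3131 and 2557 in astrocytes and 8 and 71 in neurons, so it shared with Tagln the higher reading on neurons replicate 2. With 4 arrays such likeness is a description only.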

How the data were processed

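RNA of 2 astrocyte and 2 neuron cultures was isolated with Trizol, and 50 ng went through 2 cycles of cDNA synthesis to give biotinylated cRNA, per the labels' protocols. What the authors deposited is a linear intensity for each probe set, made with MAS5 per the submitters' processing notes, with no version stated there. They are whole numbers with a mean, after trimming 2% at each end, between 149.997 and 150.002 on every array. No detection calls were used. From these, control probe sets were left out, and 12.5 (the median over arrays of the 25th percentile) was added before log2. Probe sets that reached the array's median on 2 or more of the 4 arrays were kept. The comparison of astrocytes with neurons used limma 3.58.1 under R 4.3.3, with lmFit and a two-sided test from eBayes whose prior follows the mean-variance trend, adjusted by Benjamini-Hochberg over 25019 probe sets, or over 12040 genes with the kept probe set of highest mean. Each gene's own adjusted p is from the gene fit, and that of a further probe set from the probe set fit. A further probe set is one that is not its gene's main one. The prior was worth 6.58 degrees of freedom beside 2 residual ones, the median standard error was 0.18, and the number of arrays limits precision. Where both arrays of a group were at or under background the fold is "at least", from mean log2 signals without the offset, against the array backgrounds. Symbols came from the platform annotation, with 34945 probe sets of 1 symbol, 932 of several and 9160 of none, and 34741 updated by Entrez identifier. The genes, related lists, markers and tests were chosen with earlier results of these data known. Named beside the 10 genes are, from each related list, the largest called difference in each direction, the second largest in the majority direction and the highest mean, and a fixed set of family, myosin and SRF genes; marker genes and probe sets singled out were picked with their values in view. The gene of the kinase and phosphatase list with the largest difference toward astrocytes is not reported here. Simulated data, in which 200 of 12040 genes were changed, were used to test the fit. It recovered 58% of changes at 2-fold, 96% at 4-fold and 100% at 8-fold, with 3.85% of calls false. Far more genes were called in the real data, so these rates may not hold for them. Replicate numbers in the titles do not pair the arrays, since the cultures came from animals of different age.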

Additional observations from a re-analysis of the deposited data

How the results depend on the processing

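There were 13 alternatives: 2 other offsets, 2 other filters, quantile normalization, no mean-variance trend, 2 other choices of probe sets, 4 fits with 1 array left out, and the replicate block. In 128 of 129 values of single genes the call and direction were those reported. The exception was Tpm2 without probe sets whose name marks several transcripts, with a log2 difference of 0.21 (adjusted p = 0.444), where only 1419739_at is left to read it. That setting removes 13 of the 25 tested probe sets, and 11 of the 12 left were called higher in astrocytes. It left Tagln2 without a value. The median log2 difference of the 10 genes was 3.66 in that setting, 3.52 with an offset 4 times as large, and 2.93 with the probe sets of a gene averaged. With 1 array left out it lay between 3.92 and 4.81, and 22 to 23 probe sets were called. Related genes higher in neurons numbered 6 with probe sets averaged and 6 to 9 with 1 array left out. With the replicate block the calls for the 10 genes were again 10, and the related genes higher in astrocytes numbered 31 (30 without it); the deviations of same-numbered arrays correlated at -0.0901. Beyond the losses given beside them, Myl12b was not called without the filter (adjusted p = 0.0547), without the trend (0.105) or with probe sets averaged (0.642), nor was Elk4 without probe sets for several transcripts (0.111). Some related and marker genes not named here also crossed the threshold in single settings. Signals near background limit the neuron values of Cnn1, Tagln, Tpm2, Myl9 and Cnn2, so their folds are less certain than their direction.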
